A study of Drosophila melanogaster with 4 samples.

Results

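The positions described are early satellites: places called as bound by Insensitive (Insv) in younger Drosophila melanogaster embryos that lie beside, but not on, a place still called in older embryos. They were chosen by distance, as positions of the early list whose nearest late position on the same chromosome starts more than 200 bp and at most 1000 bp away. Of 5364 early positions, 723 met this rule (13.5%, 95% exact binomial interval 12.6 to 14.4), against 2325 that lay within 200 bp of a late position, called persistent here, and 2316 that lay more than 1000 bp from any. The 2390 late positions are called late sites, and a late site with at least 1 satellite is called flanked. Because the rule used both lists of positions, the absence of a late call at a satellite is not a finding, and no test was made on it.

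Insv is a nuclear protein with a BEN domain, a fold that binds DNA directly. It is known in Drosophila as a transcriptional repressor of the nervous system and as a corepressor of Su(H), the DNA-binding factor of the Notch pathway. In chromatin immunoprecipitation with sequencing (ChIP-seq), close sites are resolved only as far as the fragment length and the peak caller allow.

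The study immunoprecipitated Insv from whole embryos of the w[1118] strain, a white-eyed stock that the labels give as wild type, kept at 25 degrees. The Insv samples were collected at 6.5-12 h (late) and at 2.5-6 h (early), and each had an IgG control of the same age, whose data were not analysed here. Each of the 4 groups has 1 sample, so no value has a replicate error, and every interval given covers counting error alone and treats neighbouring positions as independent. Whole embryos mix all tissues, so fewer bound cells and less binding per cell cannot be told apart, and the read depth of both libraries is unknown. Each position is 2 bp wide, is given in coordinates of the dm3 build, and carries a score of the authors whose scale is not stated. No gene or sequence is named because no dm3 annotation or sequence was used here.

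Satellites crowded towards the late site. Their median distance was 402 bp, with quartiles of 287 and 625 bp. There were 206 satellites at over 200 to 300 bp, 151 in the next 100 bp and 108 in the next. Each 100 bp between 500 and 1000 bp held 32 to 68 satellites. The decline continued beyond the rule, with 27 and 28 early positions in the first and second 100 bp past 1000 bp and 10 to 21 in each of the following ones up to 2000 bp. Inside the lower limit, 104 early positions lay over 100 to 200 bp from the nearest late position, fewer than in the 100 bp outside it. Gaps between adjacent early positions declined in number as well. Over all such pairs there were 577, 387 and 244 at gaps of over 200 to 300, 300 to 400 and 400 to 500 bp. For pairs of persistent positions the numbers were 267, 148 and 93. The decline with distance from 200 to 500 bp was thus not particular to satellites.

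Just inside the lower limit, at 201 bp, stood 2L 5271376 to 5271377 with a score of 19.4 and 2R 10029043 to 10029044 with 8.71. Just outside it, at 199 and 198 bp, stood 3L 13008613 to 13008614 with 18.6 and X 9176438 to 9176439 with 7.79. At the upper limit, 2 satellites on 3R lay at exactly 1000 bp, at 2989347 to 2989348 with a score of 12.9 and at 8903196 to 8903197 with 3.24, while the first positions beyond it, at 1002 and 1008 bp, scored 6.40 and 9.34. High and low scores thus stood on either side of the lower limit, and scores varied among positions at the same distance.

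**Figure D1:**
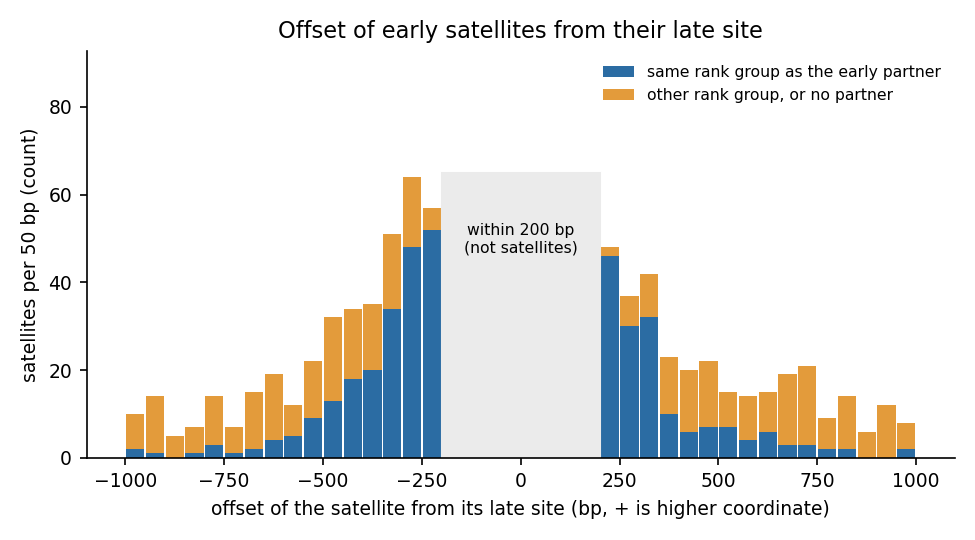
Number of satellites in each 50 bp of signed offset from their late site, where positive offsets are towards higher coordinates; blue bars are satellites in the rank group of their early partner and orange bars all others. Counts fall with distance on both sides, and the lower-coordinate side holds 398 satellites and the higher-coordinate side 325.

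The 2 sides of the late sites held different numbers of satellites, by a margin that depends on the limits used. On the side of higher coordinates lay 325 satellites and on the side of lower coordinates 398, a share of 45.0% (95% exact interval 41.3 to 48.7). The interval included 50% with a lower limit of 300 bp (42.1 to 50.8), an upper limit of 2000 bp (43.5 to 50.2) or the top 50% of the early list (38.5 to 50.9). The imbalance was found among near satellites: at over 200 to 500 bp, 192 were on the higher side and 273 on the lower (41.3%, 36.8 to 45.9). At over 500 to 1000 bp the numbers were 133 and 125 (51.6%, 45.3 to 57.8). This split of distances was made after the values were seen, and the difference between the ranges was not tested.

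All 5 large arms had more satellites on the lower side, from 79 higher and 83 lower on 3L to 45 higher and 64 lower on 2R, although the interval of each single arm included 50%. Counting only the nearest satellite of each late site gave 247 and 304 (44.8%, 40.6 to 49.1). Among early positions over 1000 to 5000 bp from their late site, the numbers were 246 and 234. Sides refer to the coordinate axis and not to the direction of any gene, and the cause of the imbalance was not tested.

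Satellites were weak calls. The lowest satellite scored 2.89 and the highest 46.3. The satellite median was 9.96 (quartiles 6.91 and 13.2), against 21.8 (11.5 and 45.7) for persistent positions. Early positions more than 1000 bp from a late one had 8.67 (6.33 and 11.8). A score above 20 was held by 44 satellites (6.09%), by 53.5% of persistent positions and by 4.58% of those beyond 1000 bp. In score, satellites thus stood close to the early positions far from any late site. The part of these far positions that had an early neighbour within 1000 bp was nearer still, with a median of 9.66 (603 positions), against 8.38 for the 1713 without one.

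The share of satellites was nearly level over the lower scores and then declined. The early list was divided into 10 deciles of score, counted upwards from the lowest scores. Satellites made up between 14.6% and 19.6% of deciles 1 to 7. Their share was 9.70% in decile 8 (scores of 17.5 to 26.7) and 4.10% in decile 9 (26.7 to 48.5). None of the 537 positions in decile 10 was a satellite, and the exact interval of that share reaches 0.685%. In that decile 536 positions were persistent and 1 lay more than 1000 bp from a late position. The share of such far positions declined as well, from 68.5% in decile 1 to 26.9% in decile 8 and 7.46% in decile 9. The decline at high scores was thus not particular to satellites.

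**Figure D2:**
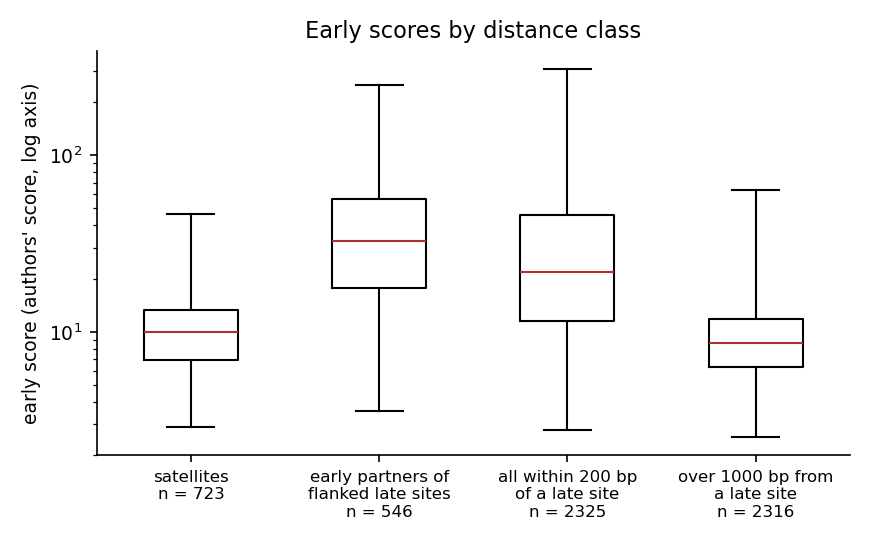
Early scores on a log axis for 723 satellites, the 546 early partners of flanked late sites, all 2325 early positions within 200 bp of a late position and the 2316 more than 1000 bp away; boxes give the quartiles, red lines the median and whiskers the lowest and highest value. The satellite median of 9.96 lies near the 8.67 of the far positions and below the other medians.

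Each satellite was next set against the early partner of its late site, the early position nearest to that late site and within 200 bp of it. A partner existed for 718 of the 723 satellites. Satellites had a median score of 9.98 and their partners, counted once per satellite, 34.3. The satellite was the weaker of the pair in 655 of 718 cases (91.2%, 88.9 to 93.2), and the median log2 ratio of satellite to partner score was -1.81 (binomial interval of the median -1.93 to -1.69, quartiles -2.65 and -0.86). On the linear scale this median is a satellite score 0.285 times that of the partner. Every partner is a persistent position by its definition, and persistent positions scored higher than satellites over the whole list (medians of 21.8 and 9.96). These pairs therefore cannot show a difference apart from that between the 2 classes.

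In 513 pairs (71.4%, 68.0 to 74.7) the satellite had less than 0.5 times the partner's score. A gap of that size was common among close early positions in general: of all 1662 adjacent early pairs over 200 to 1000 bp apart, 53.5% had one score under 0.5 times the other. Among adjacent pairs, it was found in 70.1% of 658 pairs of a satellite and a persistent position (66.4 to 73.5), in 52.8% of 621 pairs of persistent positions (48.8 to 56.8), in 22.0% of 82 pairs of satellites (13.6 to 32.5) and in 27.4% of 263 pairs in which both lay more than 1000 bp from a late site (22.1 to 33.2). Pairs of a satellite and a persistent position were thus more unequal than the background of adjacent pairs, while pairs of satellites and pairs of far positions were both more alike than that background, with overlapping intervals.

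The height of the partner was not mirrored in the satellite. With pairs divided into 4 equal groups by partner score, satellites of the lowest group (partner median 12.4) had a median of 9.70, and in the next groups, with partner medians of 26.3, 46.2 and 87.1, they had 9.45, 10.4 and 10.1. Across the 718 pairs the Spearman rho of the scores was 0.07 and the Pearson r of their log2 values 0.08, as a description of positions that share 1 library. Adjacent persistent positions gave similar values, a rho of 0.08 over 621 pairs. The median log2 ratio therefore was -3.21 in the highest of these groups, against -0.38 in the lowest.

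**Figure D3:**
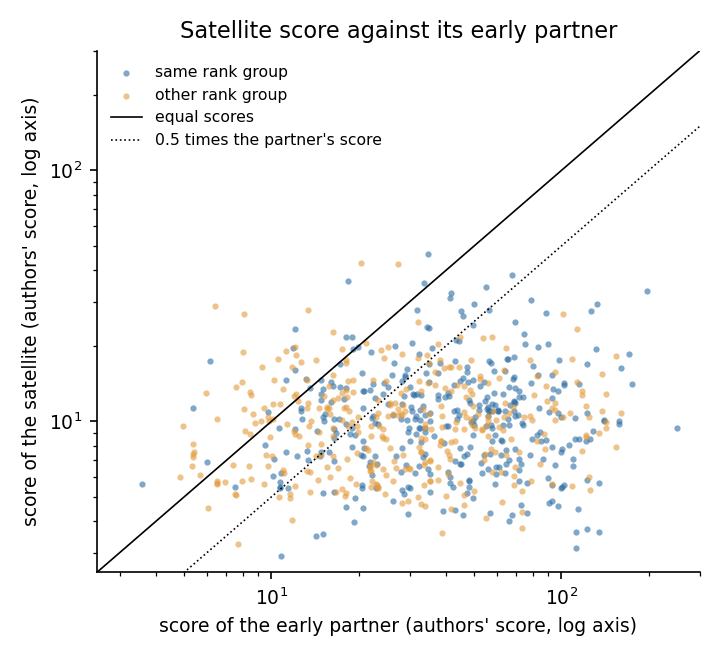
Early score of each of 718 satellites against the early partner of its late site, on log axes; blue points share a rank group with the partner, the solid line marks equal scores and the dotted line 0.5 times the partner's score. Most points lie below the dotted line, and satellite scores keep to the same range, around 10, at every partner score.

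The 10 highest-scoring satellites were on 2L, 2R, 3L and 3R. The highest, at 3L 1302939 to 1302940, scored 46.3 and was number 575 in the early list. It lay 231 bp below a late site that scored 68.2 in the late list and whose early partner scored 34.6. At 2R 7634716 to 7634717 a satellite of 42.7 stood 460 bp below a late site of 7.57 with an early partner of 20.3, and at 2R 12459798 to 12459799 one of 42.4 stood 480 bp above a late site of 23.4 with a partner of 27.3. These 3 satellites outscored the early partners of the sites that remained called.

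The next ones were mixed. On 3R, the satellite at 15728432 to 15728433 scored 38.5 beside a partner of 67.5, and that at 20719505 to 20719506 scored 34.2 beside a partner of 54.8. The satellite at 3L 805441 to 805442 scored 36.2, nearly double the 18.4 of its partner, and its late site 535 bp away had one of the low late scores, 4.22. At 2L 3158990 to 3158991 satellite and partner were close, with 35.7 and 33.7. The widest gap of the 10 was at 2R 6669598 to 6669599, where a satellite of 33.0 lay 798 bp from a late site whose partner scored 197. The last of the 10, at 2R 8061054 to 8061055 and 3L 3626322 to 3626323, scored 32.5 and 31.0 with partners of 41.5 and 41.2.

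In 63 pairs the satellite scored above the partner. At the median, these satellites scored 13.8, their late sites 10.2 in the late list and the early partners 9.79. In the other 655 pairs, satellites had 9.63, the late sites 21.1 and the early partners 38.4. Only 8 satellites had more than double the partner's score.

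The largest such ratio was at X 7180830 to 7180831, where a satellite of 28.8 stood 532 bp above a late site of 11.0 with an early partner of 6.38. A satellite of 26.7 at X 19392021 to 19392022 had a partner of 8.07, 946 bp from the late site of 4.66. The others of the 5 highest ratios were on 2L, at 11807419, 8478726 and 9521681 (first base), with satellite scores of 17.4, 18.9 and 13.0 against partners of 6.16, 8.01 and 5.94. At these places the stronger early position had no late position within 200 bp while its weaker neighbour had one.

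For 5 satellites the late site had no early partner. They lay at 203 to 725 bp and scored from 5.74 to 9.89, with late scores of 4.23 to 13.8. Of the 130 late positions without an early partner, these 5 sites were flanked (3.85%), against 546 of 2260 with one (24.2%).

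The 723 satellites were spread over 551 late sites, 23.1% of all late sites (21.4 to 24.8). A single satellite was found at 416 sites, 2 at 107, 3 at 21, 4 at 5 and 5 at 2 sites. More than 1 satellite was thus present at 135 of 551 flanked sites (24.5%, 21.0 to 28.3), and 307 satellites (42.5%) shared their late site with another. Of the 135 sites, 58 had satellites on both sides (43.0%, 34.5 to 51.8).

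At the 39 sites with exactly 1 satellite on either side, the higher-side offset had a median of 374 bp and the lower-side offset 387 bp. The 2 offsets of a site differed by 117 bp at the median, and the higher-side satellite was the farther one at 19 of the 39. The smallest difference was 10 bp and the lower quartile 76 bp, so no site was an exact mirror image. No tolerance for an approximate one was set.

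Strong persistent sites were flanked more often than weak ones. With late sites divided into 10 deciles by the early score of their partner, 9.73% of decile 1 were flanked (6.20 to 14.4) and 24.8% of decile 5 (19.3 to 30.9). Deciles 8, 9 and 10 had 35.0%, 34.1% and 31.4%. The number of satellites per late site went with it, at 0.456 in decile 10, against 0.115 in decile 1. The median score of the satellites themselves stayed between 9.36 and 10.2 in deciles 2 to 10, and was 6.67 in decile 1. Strong persistent positions also had other late sites nearby more often. Of persistent positions with an early score above 30, 620 had a late site over 200 to 1000 bp away and 301 did not. Of those scoring up to 5, 7 had one and 44 did not. More close neighbours at strong positions were thus not particular to satellites.

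Over all late sites, flanked ones had a median late score of 17.5 (551 sites, binomial interval 15.5 to 19.9), against 12.8 for the 1839 sites with no satellite (12.3 to 13.3). This excess was not kept throughout at similar early partner scores. Within deciles of partner score, the median late score was lower at flanked sites in 7 of 10. Examples are 58.8 against 67.0 in decile 10 and 25.6 against 29.5 in decile 8. Decile 9 was nearly level, with 45.6 against 46.2. Flanked sites had the higher median in deciles 1, 2 and 7, with 23.9 against 18.7 in decile 7. These medians have no interval, and the differences were not tested. The log2 ratio of late to early score at sites with a partner had a median of -0.65 for flanked and -0.47 for other sites, on score scales that may differ between the lists. Within deciles of partner score this ratio was lower at flanked sites in 6 of 10. A second late site within 1000 bp was present for 51.8% of flanked sites (47.6 to 56.1) and 56.0% of the others (53.6 to 58.4).

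The late site with the most satellites was X 10259939 to 10259940, which scored 62.2 late and whose early partner scored 68.9. Its 5 satellites all lay on the lower side, over a stretch of 705 bp. Going outwards, at 227, 385, 565, 796 and 932 bp, they scored 15.0, 18.1, 11.0, 11.9 and 12.1. This site had a one-sided row of early positions, none above 0.263 times the partner's score.

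The other site with 5 satellites, 3L 2765942 to 2765943, scored 14.2 late and 71.6 in the early list. Its satellites were 740 bp below and 220, 349, 460 and 630 bp above, with scores of 7.55, 7.11, 13.2, 6.41 and 12.5. At 3L 1335393 to 1335394, which scored 28.8 late and 57.5 early, all 4 satellites were on the higher side, from 433 to 954 bp, and scored 8.37 to 11.7. A one-sided row was thus seen here as well, towards the opposite side of the axis.

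At 2L 7828318 to 7828319, with a late score of 14.7 and an early partner of 32.9 at a distance of 129 bp, 1 satellite lay 541 bp below and 3 lay 663 to 971 bp above, scoring 7.53 to 13.2. At 3L 8060008 to 8060009, scored 24.5 late and 33.8 early, 3 satellites lay below and 1 above, at 258 to 808 bp, scoring 7.38 to 10.6. Each of the 22 satellites of these 5 sites scored below the early partner.

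The deposited names of the positions hold a running number and a rank number. Neighbouring early positions often carried the same rank number: 1167 of 1935 neighbours within 1000 bp of each other did (60.3%), against 8 of 3420 neighbours farther apart, and in 1165 of the 1167 the running numbers were consecutive. Positions joined in this way are called a rank group here. What the rank stands for is not given in the sources used here, and these groups were examined after the values were seen. The early list has 4198 such groups and the late list 1871.

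Of the 718 satellites with a partner, 373 were in the rank group of that partner (51.9%, 48.2 to 55.7). The share followed distance closely. It was 85.9% of 205 satellites at over 200 to 300 bp (80.3 to 90.3), 64.0% of 150 in the next 100 bp (55.8 to 71.7) and 40.7% of 108 in the next (31.4 to 50.6), and it was 11.4% of 44 at over 900 to 1000 bp (3.79 to 24.6). Satellites were a mixture, the nearer ones mostly joined by rank to the persistent position and the farther ones mostly listed apart. Over all adjacent early pairs with gaps of over 200 to 1000 bp, 53.8% shared a rank group. That share was 86.1%, 62.0% and 35.7% at gaps of over 200 to 300, 300 to 400 and 400 to 500 bp. The decline with distance was thus not particular to satellites.

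Compared at the same gap, the share of satellites joined to a persistent neighbour was below that of persistent pairs in every range of gaps, and above that of pairs far from any late site up to 750 bp. At gaps of over 300 to 400 bp, 63.2% of 152 adjacent pairs of a satellite and a persistent position shared a rank group (55.0 to 70.8), against 73.6% of 148 pairs of persistent positions (65.8 to 80.5) and 28.1% of 57 pairs in which both were more than 1000 bp from a late site (17.0 to 41.5). At over 400 to 500 bp the shares were 33.3%, 50.5% and 9.09%, over 99, 93 and 33 pairs. The intervals of the first and second kind of pair overlap in each range of gaps. Overlap alone does not show that the shares are equal, and the difference was not tested.

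**Figure D4:**
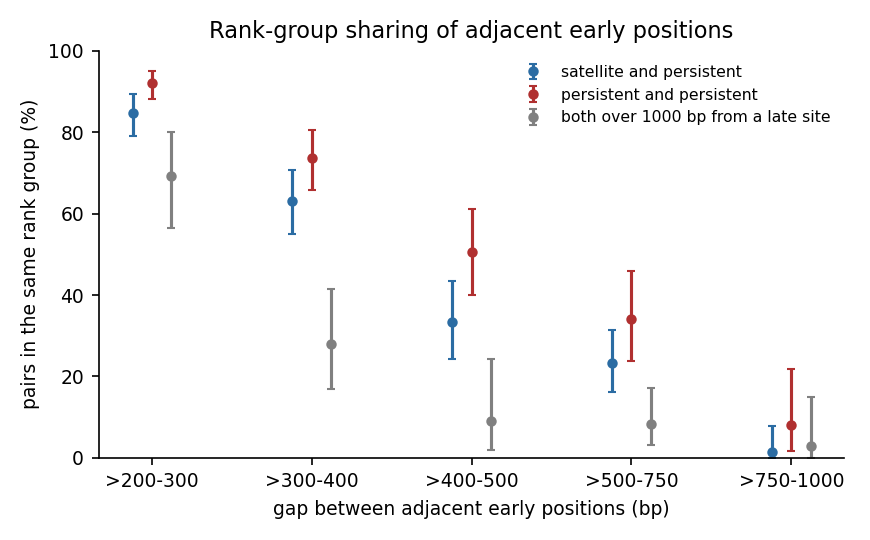
Percentage of adjacent early positions in the same rank group by the gap between them, for pairs of a satellite and a persistent position (blue), pairs of persistent positions (red) and pairs more than 1000 bp from a late site (grey); bars are 95% exact binomial intervals. Shares decline with the gap in all 3 kinds, and the grey points lie below the others up to 500 bp.

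Rank groups that held both a satellite and a persistent position numbered 287, with 901 early positions, of which 383 were satellites and 510 persistent. The group had 3 positions at the median, and it spanned 537 bp at the median and 2039 bp at most. The highest score of the group belonged to a persistent position in 275 of the 287 (95.8%, 92.8 to 97.8). Persistent positions scored higher than satellites over the whole early list as well, so this share is not a separate finding. The persistent positions of these groups were matched by 481 late positions, 1.68 per group on average where the early list had 3.14. The lower late number is set largely by the choice of groups. Each holds a satellite, which by the rule has no late position within 200 bp. In groups of 3 or more, 57.1% of satellites stood at an end of the group (50.9 to 63.1), against 46.8% of persistent positions (41.8 to 51.9). Satellites thus stood both at the ends and inside these groups, and at an end more often than persistent positions did. The rule can itself favour ends, since a satellite lies over 200 bp from every late position and inner positions have group members on both sides. The difference was not tested, and it draws on the same distances that chose the satellites.

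Scores differed little between the 2 kinds of satellite. Those in the partner's rank group had a median of 10.2 with partners of 43.0, and those in another group 9.59 with partners of 27.3. The median log2 ratios were -2.01 (binomial interval -2.20 to -1.87) and -1.50 (-1.79 to -1.34). Among satellites at over 200 to 500 bp alone, the ratios were -1.97 and -1.66, with overlapping intervals. The imbalance of sides was present in both, with 41.5% of 316 such near satellites on the higher side in the same group and 40.9% of 149 in other groups.

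Most satellites had a persistent position as their closest early neighbour, 508 of 723 (70.3%, 66.8 to 73.6), and for 192 it was another satellite (26.6%). The rule nearly ensures a persistent position close by, since 718 of the 723 satellites belonged to a late site with an early partner. These shares are therefore not a separate finding. The distance to the closest early neighbour was 316 bp at the median and never under 104 bp. A late site on either side within 1000 bp was present for 105 satellites (14.5%, 12.0 to 17.3). Those had a median score of 11.1, against 9.76 for the 618 with a late site on 1 side, a small difference within overlapping quartiles.

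Satellites are by the rule the early positions beside a late site that had no late position of their own, so the counts that follow describe how the rule divided the list and support nothing further. Of 1933 early positions with a late position over 200 to 1000 bp away, 1210 also had one within 200 bp and the other 723 were the satellites. By early score, the satellites made up 43 of 50 such positions scoring up to 5, 239 of 402 at over 10 to 15, 75 of 197 at over 15 to 20, 33 of 230 at over 20 to 30 and 11 of 631 above 30. They were thus most of the weak positions beside a late site and few of the strong ones. Early positions with no late position over 200 to 1000 bp away were divided by score as well. In the same ranges, 238 of 282, 633 of 875, 191 of 317, 81 of 206 and 25 of 326 had none within 200 bp. Weak positions thus mostly lacked a late position in both sets.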

How the data were processed

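Peak positions of 2 Insv ChIP-seq samples were used, 1 per age; the IgG samples were not analysed here. Reads were aligned with Bowtie to dm3, per the submitters' processing notes. Which caller made the positions, at what threshold and whether it used IgG reads is not given in the sources used here. The score of each position is the authors' own deposited value with no stated scale, and was used only to describe, rank or filter positions within a list, or in ratios named as such. Depth is unknown.

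Distances were taken between start coordinates and converted to 1-based dm3 positions. Shares have 95% exact binomial (Clopper-Pearson) intervals and medians have intervals from binomial order statistics. No p-value was computed, since each group has 1 sample. The rules for named positions were the 10 highest satellite scores, the 5 late sites with most satellites, the 5 highest ratios to the partner and 2 positions on either side of each limit. The members and measures were chosen with earlier results of these data known, and rank groups and the division of sides by distance were added after the data were seen. Alternatives were other distance limits, the top 50% of either list, leaving out heterochromatic and unplaced sequence, only late positions with an early one within 200 bp, 1 satellite per late site and a partner limit of 100 bp. A planned search for the Insv binding site was not run because no dm3 sequence was used. The code was tested on simulated data. Versions were Python 3.11.15, scipy 1.17.1, numpy 2.4.6, matplotlib 3.10.9 and pandas 2.3.3.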

Additional observations from a re-analysis of the deposited data

How the results depend on the processing

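Of 102 alternative values, 64 stayed within the counting interval of the value reported, or within 1.5 times a count, and 38 did not; none changed direction. A lower limit of 100 bp gave satellites as 15.4% of early positions, a median offset of 361 bp, 26.2% of late sites flanked and 57.1% of satellites in the partner's rank group. A lower limit of 300 bp gave 9.64%, 498 bp, 17.0% and 38.4% for the same measures. An upper limit of 500 bp gave 465 satellites, 8.67% of early positions, a median offset of 317 bp, 17.1% of late sites flanked, 13.0% of flanked sites with more than 1 satellite, 68.3% in the partner's rank group, 93.7% below the partner, and a late score higher by 8.27 at flanked sites, against 4.71 as reported. An upper limit of 2000 bp gave 16.8% of early positions, 483 bp, 26.6% flanked, 28.8% with more than 1 and 42.9% in the partner's rank group. The top 50% of the early list held 260 satellites at 233 late sites: 9.69% of early positions, a median score of 14.6, a log2 ratio of -1.27, a median offset of 372.5 bp, 9.75% of late sites flanked, 10.3% with more than 1 and 58.9% in the partner's rank group. The top 50% of the late list gave 15.4% of early positions, a median score of 11.1, a log2 ratio of -2.06, 94.9% below the partner, 44.1% flanked, 39.8% with more than 1 and 61.0% in the partner's rank group; early positions within 200 bp of a discarded late one can then count as satellites. With 1 satellite per late site the log2 ratio was -1.69. The share on the higher side was between 41.3% and 46.8% under all of these limits and filters, but its interval included 50% under 3 of them: the lower limit of 300 bp (42.1 to 50.8), the upper limit of 2000 bp (43.5 to 50.2) and the top 50% of the early list (38.5 to 50.9). Changes in the counts follow from the number of positions each limit lets in; other causes were not tested. No paired analysis was possible because there is 1 sample per group, which also leaves no replicate to drop. Depth is unknown, so how many satellites had late signal under the calling threshold cannot be said.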

Other observations

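The rule was also applied with the lists exchanged, after the data were seen. Late positions whose nearest early position was over 200 to 1000 bp away numbered 54 (2.26% of the late list, 1.70 to 2.94), against 723 early satellites (13.5% of the early list). The early list is the longer, with 5364 positions against 2390, and 2260 late positions had an early one within 200 bp. Depth and calling threshold are unknown, so the 2 shares cannot be compared as traits of the 2 ages. The 54 late satellites scored 7.99 at the median and 16.9 at most, and their median offset was 328 bp. Of the 50 that had a late partner to compare with, 42 scored below it, with a median log2 ratio of -2.31, and 36 were in its rank group (72.0%, 57.5 to 83.8). Of the 54, 28 lay on the higher side and 26 on the lower. No interval was computed for these few positions, so they show no contrast with the sides of the early satellites.

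Satellites were found at similar rates along the large arms. They made up 11.2% of early positions on 2R (9.29 to 13.4), 12.3% on 3R, 14.4% on 2L, 14.7% on X and 15.0% on 3L (13.0 to 17.3). Flanked late sites ranged from 20.3% on 3R (17.1 to 23.8) to 24.8% on 2L (20.6 to 29.4). Median satellite scores were 10.8 on X, 10.4 on 2L and between 9.24 and 9.56 on the other large arms. Chromosome 4 had 3 satellites among 25 early positions.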
